A study of Ovis aries with 6 samples.

Results

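Neutrophil nuclei in the sheep rumen wall were picked out by their marker transcripts: 453 of 45824 nuclei (0.989%) in 6 libraries met the rule. Nuclei were kept with 300 or more detected genes and no more than 10% of UMIs from mitochondrial genes, and a kept nucleus was a member if it had at least 1 UMI of 2 or more of CSF3R, CXCR2 and CXCL8, of which 1 had to be CSF3R or CXCR2. It also had no UMI of FLT3, THEMIS or PAX5 and UMIs of at most 1 of TP63, DSG1, DSC2 and COL17A1. CXCR1 and CD163, which the rule also names, matched no symbol among the 26741 genes and were not used here. The markers were CXCR2 with CXCL8 in 212 members, CSF3R with CXCR2 in 127, CSF3R with CXCL8 in 68 and all 3 in 46. Just outside the rule lay 421 nuclei with CXCR2 alone, 192 with CSF3R alone, 66 with enough markers but a UMI of FLT3, THEMIS or PAX5, and 84 with enough markers but several keratinocyte genes.

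Neutrophils are short-lived white blood cells made in bone marrow, which leave the blood for tissue along gradients of chemoattractants and kill microbes with oxidants, granule proteins and extracellular traps. CSF3R is the receptor for granulocyte colony-stimulating factor, CXCR2 the receptor for CXCL8 and related chemokines, and CXCL8 a chemoattractant that activated neutrophils also make. Mature neutrophils carry little RNA, and their granule proteins are mostly transcribed earlier, in the marrow. The rumen is the fermentation chamber of the ruminant stomach, lined by a keratinised squamous epithelium, where neutrophils are known for entering during inflammation. Roles given below are those known from human and mouse.

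The tissue was ventral rumen epithelium of male lambs, frozen before nuclei were isolated, and each of 6 lambs gave one 10x Genomics library. The labels put 3 lambs in the treatment group MGHS and 3 in MGNS, and do not spell the names out; the study's title concerns additional feed for sheep on pasture. The sources used here give neither age nor breed. The libraries held 34418856 to 59997793 UMIs, and any 2 of them shared 19 to 49 barcode sequences. Neutrophil nuclei numbered 26, 12 and 110 in MGHS 1 to 3, against 39, 159 and 107 in MGNS 1 to 3. Their summed UMIs were 52225, 39048 and 277718 in MGHS, against 116524, 287665 and 301242 in MGNS, so that 1 UMI in the thinnest sum, MGHS 2, equals 25.6 counts scaled to a total of 1e6 (CPM). Levels below are CPM of those sums, or of the sums of the part or class of nuclei named. Means are over animals, and errors are SDs.

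The members were shallow nuclei, and a deep minority of them also carried genes of other myeloid cells. The median neutrophil nucleus held 980 UMIs, against 4120 in all other nuclei, 4955 in 931 macrophage nuclei and 10381 in 4709 keratinocyte nuclei. Macrophage nuclei were those with UMIs of MRC1 and of MSR1 or CSF1R, and none of CXCR2, FLT3, THEMIS or PAX5. The complement C1q genes were not used to pick them, and C1QA was detected in 74.2% of them. The dendritic nuclei below were also picked without CXCR2 UMIs. A limit at 4000 UMIs, set after the depths were seen, split the members into 362 shallow ones with 415436 UMIs and 91 deep ones with 658986 UMIs. The deep members therefore supplied 61.3% of the members' UMIs. In the sums of shallow members, 1 UMI equals 44.3 CPM in MGHS 1 and 96.6 CPM in MGHS 2. CD74, the class II invariant chain, stood at 1716 CPM in deep members, against 855 CPM in shallow members, 2376 CPM in macrophage nuclei and 3024 CPM in 449 dendritic nuclei (FLT3-positive). The macrophage mannose receptor MRC1 averaged 398 CPM in deep and 96.6 CPM in shallow members, and CD207, the Langerhans cell lectin, 269.9 and 46.1 CPM. A UMI of MRC1 or a C1q gene was found in 53.8% of deep members, in 16.03% of members with 1000 to 4000 UMIs and in 6.93% of those with under 1000 UMIs, a share that also grows with depth. The shallow members held receptor and oxidase genes of neutrophils, described below, beyond those of the rule. The data go against the name for the deep members, whose 25 leading genes over other nuclei included PKIB, CD207, CD83, class II DQA and OVAR-DRB1, ALCAM and LYZ beside PLEK, SDS and ACOD1. Scrublet, a doublet caller, marked 23 of the 453 members, and none was removed. Whether deep members are 2 nuclei in 1 droplet or another cell type was not tested.

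**Figure D1:**
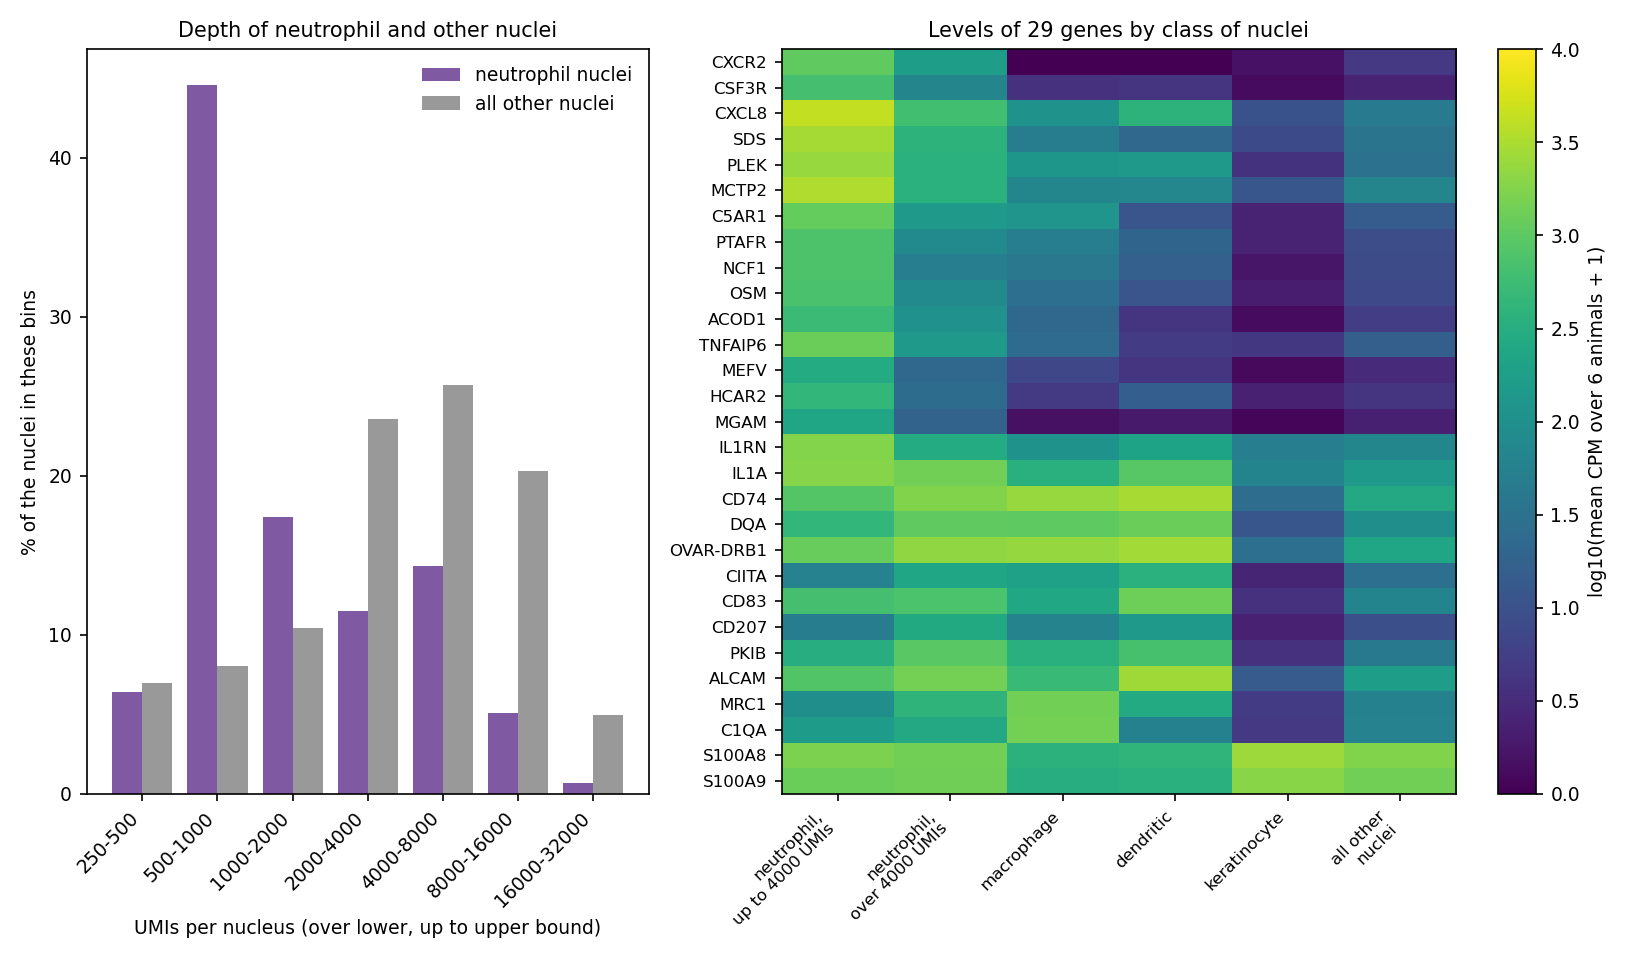
Left: the share of neutrophil nuclei and of all other nuclei (%) in bins of UMIs per nucleus, 6 animals together. Right: log10 of the mean CPM over 6 animals plus 1 for 29 genes (rows) in 6 classes of nuclei (columns), with brighter colours for higher levels; the shallow members lead for the genes from CXCR2 to IL1RN, and the deep members for CD74, OVAR-DRB1, CD207 and PKIB among the 2 sets of members.

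Beyond the genes of the rule, SDS, MCTP2 and PLEK stood among the genes with the largest ratio of shallow members over other nuclei. As a description with no test, since the rule chose these nuclei against the rest, 639 of 10036 genes with at least 10 UMIs in members (6.37%) were higher in shallow members than in other nuclei in 6 of 6 animals. Serine dehydratase SDS, an enzyme of amino acid breakdown, had 3896, 1836 and 4136 CPM in shallow members of MGHS 1 to 3 and 2489, 3052 and 2065 CPM in those of MGNS 1 to 3. No animal had less than 1836 CPM, while other nuclei averaged 34.2 CPM, macrophage nuclei 47.2 CPM and dendritic nuclei 20.5 CPM. MCTP2, a calcium-binding membrane protein, had 5756, 1836 and 3406 CPM in MGHS and 4670, 2860 and 1647 CPM in MGNS, against a mean of 66.0 CPM in other nuclei. PLEK, the protein kinase C substrate pleckstrin, had 3675, 579.7 and 2755 CPM in MGHS and 2069, 3699 and 1914 CPM in MGNS, against 31.5 CPM in other nuclei. MGHS 2, with 8 shallow members, was lowest for SDS and PLEK, and the groups overlapped for all 3 genes. An SDS UMI was found in 82.0% of shallow members at a median of 851 UMIs, against 6.41% of keratinocyte nuclei at a median of 10381 UMIs.

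Genes of the list of chemoattractant and growth factor receptors, which also holds cytokine receptors, were mostly higher in the members than in other nuclei. Of the list of 22 chemoattractant and growth factor receptors 17 were matched, and 12 of those were higher in the members as a whole than in other nuclei in 6 of 6 animals. CSF3R and CXCR2 are among the 12 by the rule; of the other 15 receptors 10 were higher in all members and 9 in shallow members alone. Over the 10036 genes with at least 10 UMIs in members the share was 8.87% for all members. CXCR2 stood at 1063, 966 and 886 CPM in shallow members of MGHS and 1370, 1093 and 1044 CPM in those of MGNS. CSF3R stood at 885, 676 and 556 CPM in MGHS and 699, 736 and 418 CPM in MGNS. Both chose the members, so these levels describe the choice, but the groups overlapped for CSF3R, and for CXCR2 they met at 1063 CPM in MGHS 1 and 1044 CPM in MGNS 3. The receptor for complement fragment C5a, C5AR1, averaged 1134 ± 476 CPM in shallow members (n = 6), against 120 CPM in macrophage nuclei, 10.4 CPM in dendritic nuclei and 13.3 CPM in other nuclei. PTAFR, the receptor for platelet-activating factor, averaged 761 ± 463 CPM, against 50.9 CPM in macrophage nuclei and 7.81 CPM in other nuclei. IL1RAP, a shared subunit of interleukin-1 receptors, averaged 1521 CPM and TNFRSF1B, a TNF receptor, 1054 CPM, against 147 and 74.3 CPM in other nuclei. HCAR2, a receptor for niacin and ketone bodies, averaged 451 ± 363 CPM in shallow members, 3.86 CPM in macrophage nuclei and 2.98 CPM in other nuclei, with the limit that reads may be split among near-identical HCAR genes. Of all HCAR2 UMIs in the passing nuclei, 17.3% lay in the neutrophil nuclei, which held 0.409% of all UMIs.

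Oxidase and cytokine genes were high in the members, while most granule protein genes had no UMI. NCF1, the p47 subunit of the NADPH oxidase that makes the oxidative burst, averaged 749 ± 685 CPM in shallow members and 7.18 CPM in other nuclei, and its catalytic partner CYBB 255 CPM and 21.9 CPM. Of 6 matched oxidase genes 4 were higher in members than in other nuclei in 6 of 6 animals, and 5 in shallow members, against 8.87% and 6.37% of all genes. Of the granule and alarmin list, 11 of 20 matched genes had 0 UMIs in the members, among them MPO (myeloperoxidase), ELANE (neutrophil elastase), LTF (lactoferrin), LCN2, MMP8 and CD177, and 1 of 20, MMP25, was higher in members in 6 of 6 animals (0 of 20 in shallow members). A count of 0 allows up to 3 UMIs, in 1074422 UMIs of all members and in 415436 UMIs of shallow members. These genes were therefore not detected, and lower levels than that cannot be seen. The alarmins S100A8 and S100A9 were higher in members than in other nuclei in 2 and 1 of 6 animals. S100A8 averaged 1648 CPM in shallow members, against 2618 CPM in keratinocyte nuclei, 365 CPM in macrophage nuclei and 1725 CPM in other nuclei. Of the neutrophil marker list, without the genes of the rule, 3 of 17 matched genes were higher than in other nuclei in 6 of 6 animals, in all members and in shallow members alike, and 6 had 0 UMIs. By the same count the macrophage marker list had 4 of 10 matched genes in all members and 2 in shallow members. The antigen presentation list had 8 of 14, and 5 in shallow members. MMP25 averaged 61.8 CPM in shallow members against 2.88 CPM in other nuclei and TREM1, a receptor that amplifies inflammation, 94.5 against 1.14 CPM, each higher in 5 of 6 animals. They were detected in 7.18% and 7.73% of shallow members, against 0.17% of keratinocyte nuclei each, at median depths of 851 and 10381 UMIs. MMP25 was also detected in 9.13% of dendritic and 3.01% of macrophage nuclei, and TREM1 in 0.668% and 2.26%. Dendritic and macrophage nuclei had median depths of 6119 and 4955 UMIs. All 3 matched eosinophil markers, of 8 listed, were at 0 UMIs in the members. They summed to only 0.441 CPM in other nuclei, so a count of 0 does not set the members apart.

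After CXCL8, a gene of the rule that averaged 4252 CPM in shallow members, IL1A and IL1RN had the highest levels of the cytokine list. IL1A, the alarm cytokine interleukin-1 alpha, had 3011, 96.6 and 1556 CPM in shallow members of MGHS 1 to 3 and 1202, 1292 and 3967 CPM in those of MGNS 1 to 3. IL1RN, the secreted antagonist of the same receptor, had 1417, 1159 and 1825 CPM in MGHS and 1790, 2207 and 2633 CPM in MGNS. IL1RN spread over a narrower range than IL1A, where MGHS 2 rested on 1 UMI. Oncostatin M (OSM) averaged 703 ± 395 CPM in shallow members against 27.9 CPM in macrophage nuclei and 6.57 CPM in other nuclei, and IL1B 238 CPM against 23.7 and 3.99 CPM. Dendritic nuclei averaged 914 CPM of IL1A and 209 CPM of IL1RN. IL1A was detected in 40.3% of dendritic nuclei and 43.1% of shallow members, IL1RN in 51.0% and 55.0%. For IL1B the shares were 10.5% and 16.3%, and for OSM 4.90% and 42.5%. The median depths were 6119 UMIs in dendritic nuclei and 851 UMIs in shallow members. Without CXCL8, 7 of 18 matched cytokine and chemokine genes were higher in members in 6 of 6 animals, and 6 in shallow members, against 8.87% and 6.37% of all genes. TNFAIP6, a hyaluronan-binding protein of inflamed tissue, averaged 1264 ± 786 CPM and ACOD1, which makes the antimicrobial metabolite itaconate, 533 ± 273 CPM, against 15.5 and 4.26 CPM in other nuclei. The neutrophil nuclei held 21.0% of all ACOD1 UMIs and 16.9% of all OSM UMIs.

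The other lists ranged from mostly higher to near or below the share over all genes, which was 8.87% for all members and 6.37% for shallow members. In the NF-kB and survival list 11 of 19 matched genes were higher in members than in other nuclei in 6 of 6 animals, and 11 in shallow members; BIRC3, an inhibitor of apoptosis, averaged 1632 CPM in shallow members, 495 CPM in macrophage nuclei and 1681 CPM in dendritic nuclei. In the pattern recognition list 7 of 19 were, and 5 in shallow members, among them TLR2, a receptor for bacterial lipoproteins, at 521 ± 113 CPM against 11.5 CPM in other nuclei. MEFV, which encodes the inflammasome sensor pyrin, averaged 293 CPM in shallow members and 6.19 CPM in macrophage nuclei. The interferon response list had 10 of 17, and 8 in shallow members, with RSAD2 (viperin) at 559 CPM against 26.1 CPM and IFIT2 at 444 ± 159 CPM against 8.89 CPM in other nuclei. The hypoxia and glycolysis list had 4 of 20, and 3 in shallow members: the glucose transporter SLC2A3 averaged 1518 CPM against 73.8 CPM, while lactate dehydrogenase LDHA averaged 209 CPM against 213 CPM in other nuclei. The adhesion and migration list had 11 of 17, and 9 in shallow members, among them the kinase LYN (789 CPM against 69.3 CPM in other nuclei). In the eicosanoid list 4 of 12 were higher, and 3 in shallow members; LTA4H, which makes leukotriene B4, was at 370 CPM against 64.7 CPM and higher in 5 of 6 animals. The transcription factor list had 7 of 22, and 4 in shallow members. The selenoprotein list had 1 of 15, and 0 in shallow members. FOS, an early-response factor, was at 675 CPM against 28.9 CPM and higher in 5 of 6 animals.

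The members were also compared by whether a CXCL8 UMI was found in them. CXCL8 is a gene of the rule, so a wider set that does not use it was taken after the data were seen: nuclei with 1 UMI or more of CSF3R or CXCR2, at most 4000 UMIs, the same exclusions and no UMI of MRC1 or a C1q gene. It held 229 CXCL8-positive and 507 CXCL8-negative nuclei, with median depths of 807 and 864 UMIs. Every CXCL8-positive nucleus of this set also met the rule, while a CXCL8-negative one met it only with UMIs of both receptors. Many CXCL8-negative nuclei had 1 receptor alone, so CXCL8 and the number of markers cannot be told apart in this split. Within shallow members, IL1RN was detected in 66.7% of 252 CXCL8-positive and 28.2% of 110 CXCL8-negative nuclei. The genes named from this split were chosen after their values were seen, and the split has no test. IL1RN was detected in 68.6% of CXCL8-positive and 23.5% of CXCL8-negative nuclei, and after each nucleus was thinned to 500 UMIs in 55.6% of 205 and 17.3% of 450. By animal the IL1RN shares were 78.6%, 50.0% and 71.4% in CXCL8-positive nuclei of MGHS 1 to 3 and 80.0%, 65.2% and 67.3% in those of MGNS 1 to 3. In CXCL8-negative nuclei they were 28.2%, 13.6% and 25.7% in MGHS and 29.2%, 25% and 15.3% in MGNS. In each animal the share was higher in CXCL8-positive nuclei, though MGHS 2 had only 2 of them.

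IL1A, TNFAIP6, ACOD1, HCAR2 and IL1B, chosen after their values were seen, had higher shares in CXCL8-positive nuclei. Thinned to 500 UMIs, IL1A was detected in 43.4% of CXCL8-positive and 12.9% of CXCL8-negative nuclei (unthinned 54.1% and 16.6%), TNFAIP6 in 42.0% and 15.6% (51.5% and 21.7%), ACOD1 in 34.2% and 15.3% (43.2% and 20.7%), HCAR2 in 21.0% and 5.11% (27.5% and 8.28%) and IL1B in 15.1% and 2.89% (21.8% and 3.94%). The log2 ratio of CPM, CXCL8-positive over CXCL8-negative nuclei with 10 CPM added, averaged 2.95 over animals for TNFAIP6, 3.15 for HCAR2, 1.69 for ACOD1, 1.70 for OSM and 1.32 for PLEK, and these were higher in 6 of 6 animals. IL1A was higher in 5 of 6, the exception being MGHS 2. In MGHS 2 the CXCL8-positive side was 2 nuclei with 1476 UMIs in all. A ratio in that animal can rest on 1 UMI, and it weighs on the mean ratios given here. Over the wider set, 0.609% of 8535 genes with at least 10 UMIs were higher in CXCL8-positive nuclei in 6 of 6 animals and 4.41% were lower; without MGHS 2 the shares in 5 of 5 animals were 1.96% and 7.29%. PLEK was detected in 79.5% of CXCL8-positive and 59.4% of CXCL8-negative nuclei of the wider set (unthinned), but in 77.8% and 73.6% of shallow members. For other genes the share was lower in CXCL8-positive nuclei of the wider set. RIPOR2, a regulator of cell polarity and migration, was detected in 46.3% of CXCL8-positive and 66.7% of CXCL8-negative nuclei after thinning, and C5AR1 in 35.6% and 49.1%; by CPM they were higher in CXCL8-positive nuclei in 1 and 2 of 6 animals, with mean log2 ratios of -0.76 and 0.08. The interferon-induced IFIT2 was detected in 13.7% and 25.6% after thinning and was higher in CXCL8-positive nuclei in 1 of 6 animals by CPM (mean log2 ratio -0.15).

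**Figure D2:**
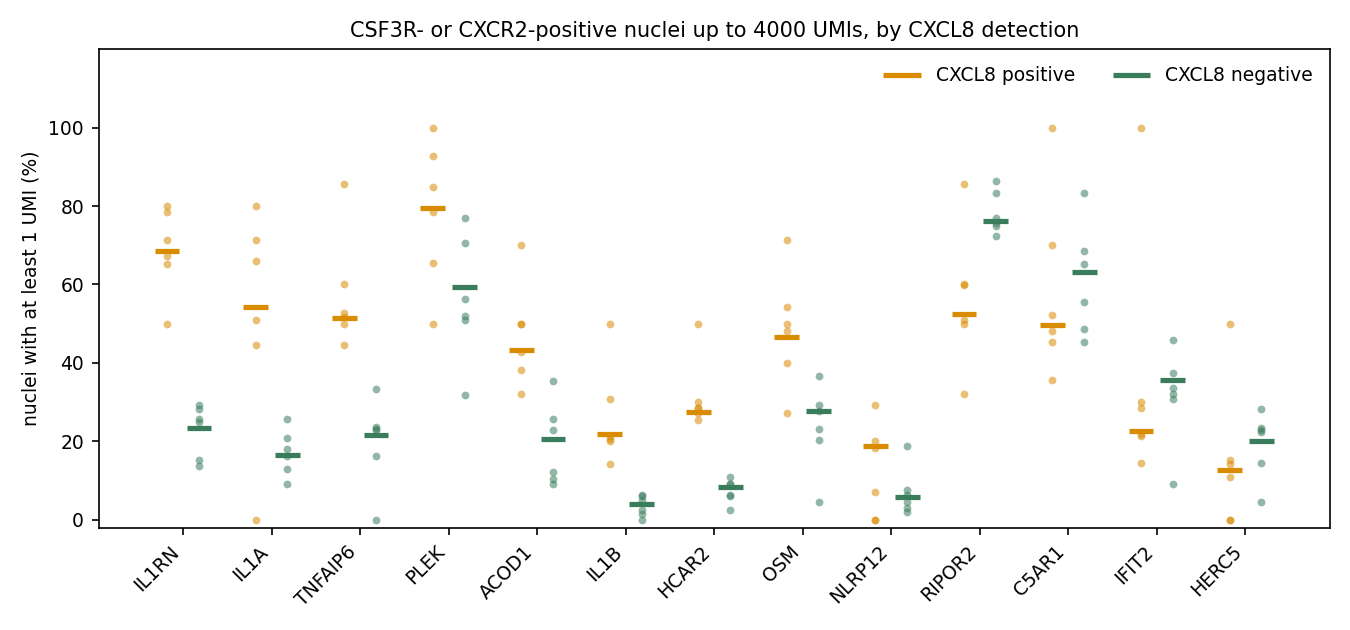
The share of nuclei with at least 1 UMI (%, unthinned) of 13 genes in CXCL8-positive and CXCL8-negative nuclei of the wider set; points are the 6 animals and bars the share over all animals. IL1RN shares lie at 50.0% to 80.0% in CXCL8-positive and 13.6% to 29.2% in CXCL8-negative nuclei.

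Within the rule's own 453 members, 326 were CXCL8-positive and 127 CXCL8-negative, deep members included. The 10 genes with the largest ratio that were higher in CXCL8-positive members in 6 of 6 animals, a pattern of 3.17% of 10036 genes, included class II DQA and OVAR-DRB1, CD74, CIITA and PKIB. In the wider set, which holds no deep nuclei and no nuclei with macrophage UMIs, DQA, OVAR-DRB1 and CD74 were higher in CXCL8-positive nuclei in 3 of 6 animals each, CIITA and PKIB in 1 of 6. NR4A3, an early-response nuclear receptor, was higher in 5 of 6. The 10 genes lower in 6 of 6 animals, a pattern of 1.79%, included HERC6, HERC5, ABHD2, CD55, ADAM19, RIPOR2, DIXDC1, CHST15 and RAP1GAP2. In the wider set ABHD2, DIXDC1 and RAP1GAP2 were higher in CXCL8-positive nuclei in 0 of 6 animals, ADAM19, CD55, RIPOR2 and HERC6 in 1 of 6, and HERC5 and CHST15 in 2 of 6.

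The share of neutrophil nuclei was lower on average in MGHS, but the groups overlapped and the difference did not pass the test. Neutrophil nuclei made up 0.429% (95% Wilson interval 0.293 to 0.627), 0.174% (0.0995 to 0.304) and 0.977% (0.812 to 1.18) of nuclei in MGHS 1 to 3. In MGNS 1 to 3 they made up 0.769% (0.563 to 1.05), 1.81% (1.55 to 2.11) and 1.38% (1.14 to 1.66). MGHS 3 lay above MGNS 1, and MGHS 2 was lowest. The mean was 0.527% ± 0.411 in MGHS and 1.32% ± 0.525 in MGNS (SD, n = 3 each), a difference of -0.794 percentage points with a two-sided exact permutation p of 0.2 (0.5 adjusted over 5 per-animal measures), where 3 against 3 animals cannot go below 0.1. Leaving out deep members gave 0.432% in MGHS and 1.03% in MGNS, with exact permutation p = 0.2. With a stricter filter of 500 genes and 5% mitochondrial UMIs, the difference was -0.346 points (exact permutation p = 0.4). Since membership needs UMIs of 2 markers, fewer neutrophils and less marker RNA per nucleus cannot be told apart.

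**Figure D3:**
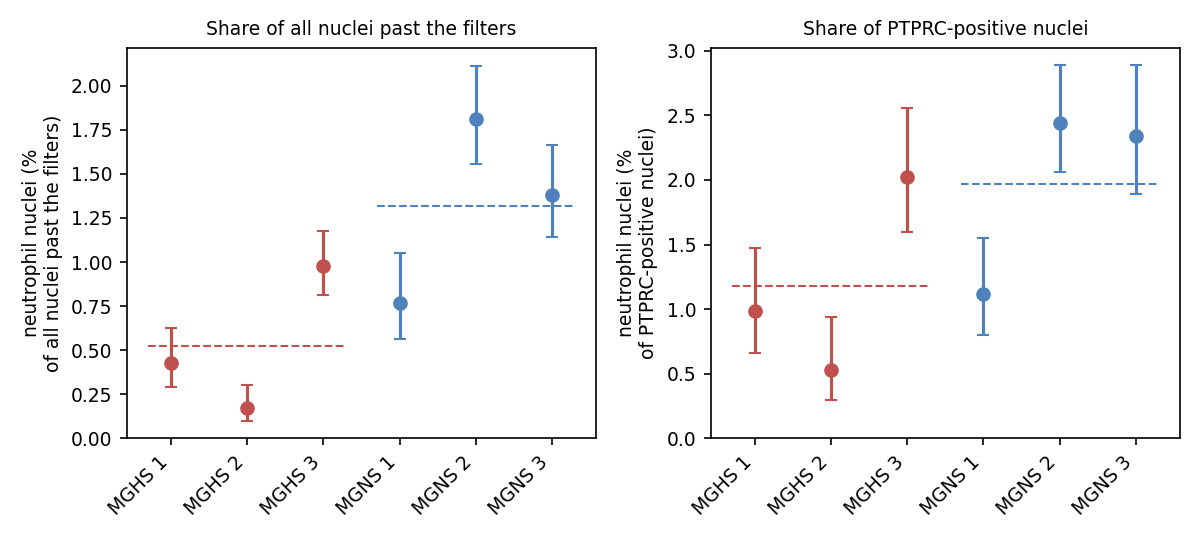
The share of neutrophil nuclei (%) per animal, of all nuclei past the filters (left) and of PTPRC-positive nuclei (right). Points are animals with 95% Wilson intervals, which cover counting error only, and dashed lines are group means; in both panels MGHS 3 lies above MGNS 1, so the groups overlap.

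PTPRC, the pan-leukocyte antigen CD45, was detected in 77.3% of the members. Among PTPRC-positive nuclei, neutrophil nuclei made up 0.988%, 0.528% and 2.02% in MGHS and 1.12%, 2.44% and 2.34% in MGNS, with exact permutation p = 0.2 (0.5 adjusted). PTPRC-positive nuclei themselves were 32.7% ± 4.96 of nuclei in MGHS and 55.8% ± 8.30 in MGNS, which moves with the share of all nuclei; its part in the lower neutrophil share was not tested. The share of members with a CXCL8 UMI was 69.2%, 58.3% and 70.9% in MGHS and 46.2%, 71.7% and 85.0% in MGNS (exact permutation p = 0.8, also adjusted). Both the lowest and the highest share belonged to MGNS. CXCL8 is a gene of the rule, and a member without it had UMIs of both CSF3R and CXCR2 by the rule. The CXCL8 share therefore also depends on how often the receptors were detected. Median UMIs per member were 949, 1942 and 1071.5 in MGHS and 1367, 861 and 1190 in MGNS (exact permutation p = 0.8). As background, CXCL8 was detected in 5.27%, CXCR2 in 0.573% and CSF3R in 0.361% of keratinocyte nuclei.

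No gene passed the test between MGHS and MGNS neutrophil nuclei. In edgeR's quasi-likelihood test on UMIs summed per animal, 0 of 4080 genes had a Benjamini-Hochberg adjusted p under 0.05 (0.0% higher and 0.0% lower), and 110 had an unadjusted p under 0.05; the smallest adjusted p was 0.999. Limma-voom called 0 genes and DESeq2 1, LOC100101238, which had 1, 1 and 12 UMIs in MGHS and 282, 123 and 56 UMIs in MGNS (DESeq2 adjusted p = 0.0283). In shallow members alone edgeR called 0 of 1323 genes, with 52 at an unadjusted p under 0.05. The MGHS and MGNS values did not overlap for 356 of the 4080 genes (8.73%), with MGHS higher for 97 (2.38%) and lower for 259 (6.35%). The difference between neutrophil nuclei and all other nuclei in this contrast was called for 0 of 4080 genes (edgeR interaction test, 160 at an unadjusted p under 0.05).

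The rule's marker genes overlapped between the groups, but they chose the members, so their levels partly describe the choice. CXCR2 over all members had 498, 487 and 461 CPM in MGHS and 524, 633 and 412 CPM in MGNS. CXCL8 had 1800 CPM, 1383 CPM and 1959 CPM in MGHS and 1150, 2951 and 2533 CPM in MGNS. The MGHS values of both lay inside the MGNS range. Among the 13 receptors tested, PTAFR, CSF2RB and TNFRSF1B did not overlap, against 356 of all 4080 tested genes (8.73%). PTAFR alone had an unadjusted p under 0.05 in edgeR, against 110 of the 4080. PTAFR had 306, 51.2 and 158 CPM in MGHS and 403, 782 and 342 CPM in MGNS, all MGHS values being lower. Its log2 fold change was -1.46 (SE 0.62, unadjusted p = 0.0428, edgeR adjusted p = 0.999), and -1.49 in shallow members (unadjusted p = 0.0117). Other nuclei ran the same way for PTAFR, with 3.61 ± 0.566 CPM in MGHS and 12.01 ± 4.27 CPM in MGNS. C5AR1 had 421, 282 and 407 CPM in MGHS and 927, 744 and 305 CPM in MGNS, where MGNS 3 fell inside the MGHS range.

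By list, 0 genes were called in any, and the median log2 fold change of all tested genes was 0.03. The receptors had a median of -0.19 over 13 tested genes (4 above 0), cytokines and chemokines -0.45 over 9 (1 above 0), NF-kB and survival -0.30 over 14 (4 above 0), hypoxia and glycolysis -0.31 over 14 (4 above 0) and antigen presentation -0.30 over 12 (2 above 0). Adhesion and migration had -0.18 over 12, the transcription factors -0.14 over 13, the interferon response -0.01 over 14 and the oxidase 0.09 over 3. Pattern recognition had 0.18 over 8, selenoproteins 0.06 over 7, the granule and alarmin list 0.56 over 4, the neutrophil-recruiting ligands -0.38 over 6 and eicosanoid synthesis -0.30 over 2. The groups overlapped for all 9 cytokine and chemokine genes tested. IL1B, the secreted form of interleukin-1, had 153, 25.6 and 86.4 CPM in MGHS and 120, 160 and 335 CPM in MGNS.

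The genes with the smallest p and no overlap are given as values, since none passed the test. GLCCI1, a glucocorticoid-induced transcript, had 115, 102 and 57.6 CPM in MGHS and 412, 459 and 611 CPM in MGNS, a log2 fold change of -2.46 (SE 0.45, unadjusted p = 0.000434, edgeR adjusted p = 0.999; 0.031 to 1.0 over its alternatives). In shallow members the GLCCI1 levels were 221, 96.6 and 130 CPM in MGHS and 252, 227 and 302 CPM in MGNS, and the log2 fold change was -0.75 (unadjusted p = 0.163). GLCCI1 was also the 1 gene whose contrast differed from that of macrophage nuclei (interaction -3.30, edgeR adjusted p = 0.0492). CTSB, the lysosomal protease cathepsin B, had 19.1, 102 and 21.6 CPM in MGHS and 378, 167 and 259 CPM in MGNS (log2 fold change -2.72, SE 0.69), on 1, 4 and 6 UMIs in MGHS. Without deep members CTSB had too few UMIs to be tested. Its log2 fold change was -1.53 without members that had a macrophage UMI. SAMHD1, a nucleotide hydrolase that restricts viruses, had 191, 102 and 79.2 CPM in MGHS and 1116, 650 and 259 CPM in MGNS (log2 fold change -2.43, SE 0.65), and 0, 0 and 78.2 CPM against 308, 578 and 278 CPM in shallow members (-2.78, unadjusted p = 0.00244, edgeR adjusted p = 0.612). A count of 0 allows up to 3 UMIs, which equal 133 CPM in shallow members of MGHS 1 and 290 CPM in those of MGHS 2. Other nuclei held 163 ± 33.6 CPM of SAMHD1 in MGHS and 434 ± 182 CPM in MGNS. The remaining lower genes of the 12 were CD84, ICOS, PDGFC, IL10RB, FAM168A, VCAN, LGMN, ROBO2 and ASRGL1, with log2 fold changes of -1.56 to -3.19 and at most 21 UMIs in any MGHS animal. Without deep members VCAN was at -2.65 and the other 8 had too few UMIs to be tested.

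Beside these stand the markers of other cells. All 6 tested macrophage markers were below 0 with a median log2 fold change of -1.67, against 0.03 over all genes, and the summed level of the 10 matched ones was 670, 640 and 987 CPM in MGHS and 4960, 1022 and 1646 CPM in MGNS. MRC1 itself had 76.6, 154 and 158 CPM in MGHS and 712, 177 and 528 CPM in MGNS. In shallow members MRC1 had 88.5, 193 and 104 CPM in MGHS and 28.0, 96.2 and 69.6 CPM in MGNS, where MGHS 1 lay below MGNS 2. The summed macrophage markers of shallow members were 841, 869 and 1208 CPM in MGHS and 1007, 674 and 557 CPM in MGNS, and overlapped. All 7 tested keratinocyte markers were above 0, with a median of 1.02 and summed levels of 1340, 384 and 3259 CPM in MGHS and 738, 827 and 870 CPM in MGNS, which overlap. The part of these cells' RNA in the differences was not tested.

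The 12 genes higher in MGHS with no overlap included several on few UMIs. FFAR4, a receptor for long-chain fatty acids, had 57.4, 154 and 86.4 CPM in MGHS and 17.2, 20.9 and 26.6 CPM in MGNS, on 3, 6 and 24 UMIs and on 2, 6 and 8 UMIs (log2 fold change 2.15, SE 0.53, unadjusted p = 0.00286, edgeR adjusted p = 0.999). Shallow members had FFAR4 UMIs in MGHS 3 and MGNS 3 alone. CC2D2A, a protein of the cilium base, had 134, 179 and 137 CPM in MGHS and 60.1, 59.1 and 29.9 CPM in MGNS, and its log2 fold change of 1.67 (SE 0.50) was 1.90 in shallow members (unadjusted p = 0.00869). GPX1, the selenium-dependent glutathione peroxidase, had 230, 205 and 371 CPM in MGHS and 146, 118.2 and 99.6 CPM in MGNS (log2 fold change 1.31, SE 0.48, edgeR adjusted p = 0.999). Without deep members GPX1 had too few UMIs to be tested, and without members that had a macrophage UMI it was at 1.19. Other nuclei also held more GPX1 in MGHS, 209 ± 68.8 CPM, than in MGNS, 61.8 ± 20.2 CPM. The others were NBEA, PREX2, PSMA1, TWF1, CCN1, PAX9, ARHGAP6, YTHDC2 and SNX3, with log2 fold changes of 1.37 to 2.69. Without deep members NBEA was at 0.42, SNX3 at 0.22 and ARHGAP6 at 1.26, and the other 6 had too few UMIs to be tested. CCN1 was at 2.69 with all animals and 4.11 without MGNS 2.

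**Figure D4:**
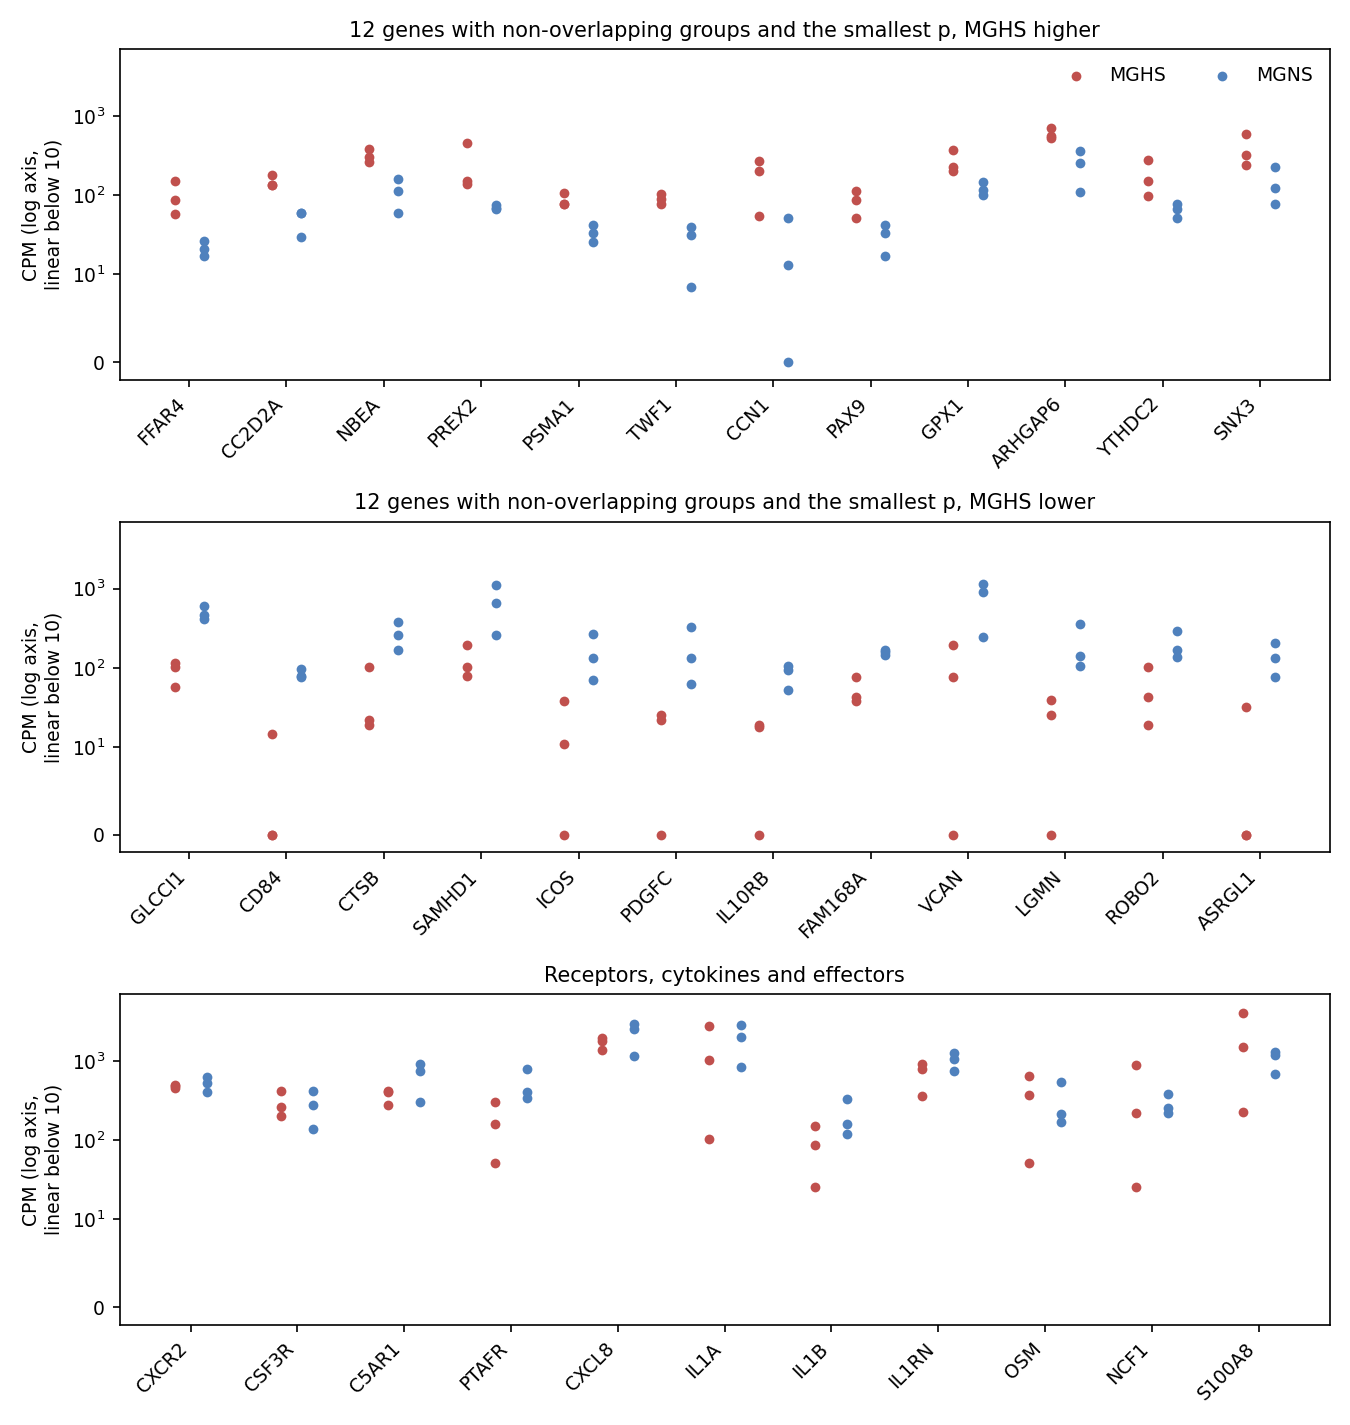
CPM of the members' summed UMIs in each animal (log axis, linear below 10), MGHS left of MGNS: the 12 genes with the smallest p and no overlap in each direction, and 11 receptor, cytokine and effector genes. In the lower panel the groups overlap for every gene shown except PTAFR, whose MGHS values of 51.2 to 306 CPM lie under the MGNS values of 342 to 782 CPM.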

How the data were processed

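The authors deposited UMI counts per gene and barcode for 6 single-nucleus libraries, unscaled; the file headers name Cell Ranger 8.0.0, the submitters' processing notes 2.1.1, which was not resolved here. The sources used here state no genome build, annotation or strand setting. Gene numbers were matched to symbols of ARS-UI_Ramb_v3.0 (26741 of 26741), and 331 of 369 listed genes had a match.

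All else was computed here (Python 3.11.15, scanpy 1.11.5, R 4.3.3). Of 67553 barcodes 45824 passed the filters. Doublet scores removed nothing in the main analysis. Members' UMIs were summed per animal and tested with edgeR 4.0.16 (robust quasi-likelihood F test, filterByExpr with minimum count 10, TMM, Benjamini-Hochberg at 0.05); DESeq2 1.42.0 and limma 3.58.1 were alternatives. The code was tested on simulated data. Per-animal measures had two-sided exact permutation tests. Member rules and gene lists were chosen with earlier results of these data known. Genes named between MGHS and MGNS are the 12 with the smallest p in each direction whose groups do not overlap, without LOC symbols or genes of the rule; others are the 4 highest of each function list, the 25 with the largest ratio over other nuclei and the 10 in each direction with the largest ratio between CXCL8-positive and CXCL8-negative members. Leading genes of shallow and deep members, genes of the wider set and single list members outside these were chosen after their values were seen. Intervals cover counting error only, since nuclei of 1 animal are not replicates. Some genes that these rules name are not reported here.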

Additional observations from a re-analysis of the deposited data

How the results depend on the processing

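The lower mean share of neutrophil nuclei in MGHS kept its direction in all 15 alternatives, between -1.07 and -0.547 points without 1 animal, and passed no test; it was -0.107 points thinned to 1000 UMIs (0.183% in MGHS and 0.29% in MGNS, exact permutation p = 0.5), -0.106 points with 3 markers and -0.321 points with CXCL8 not counted. Among PTPRC-positive nuclei it was -1.21 to -0.463 points without 1 animal. Without MGHS 2 (12 nuclei) the differences of median UMIs and median genes turned sign: over animals left out they ran from -129 to 367 UMIs and from -15.6 to 239 genes. The CXCL8-positive share differed by -12.2 to 7.23 points without 1 animal, by 7.16 points after thinning to 1000 UMIs and by -3.12 points at 500 UMIs. The count of called genes was 0 in the alternatives other than these: 28 with no filter on low counts and 1 with DESeq2; the interaction with macrophage nuclei gave 1, and 0 genes were called without any 1 animal. For 26 named genes, 391 of 397 settings kept direction and side of the threshold. The other 6 passed it with no filter on low counts (GLCCI1, CTSB, SAMHD1, ICOS, PDGFC and VCAN), and the cause was not tested. Most of these genes were picked in the main fit, where none passed, so this count says little. Settings in which a gene was not tested are not among the 397. With 1 receptor enough and no macrophage UMI, the log2 fold change was -0.39 for GLCCI1, -0.31 for CTSB and 0.52 for PREX2. With a replicate block 0 genes were called (73 at an unadjusted p under 0.05). Same-numbered animals of the 2 groups correlated at 0.0084, -0.0318 and -0.123, and differently numbered ones at -0.159 to 0.207. Sums of so few nuclei cannot show whether the numbers pair the lambs. The rules on macrophage UMIs, 1 receptor and 4000 UMIs, and the thinning of the CXCL8 share to 500 UMIs, were chosen after seeing the data. A share with a CXCR1 UMI was not run. With 12 to 159 nuclei an animal, 0 called genes does not show that large differences are absent.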

Other observations

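An unnamed gene, LOC101108811, which neighbours CXCR2 in the assembly ARS-UI_Ramb_v3.0, was found in the neutrophil nuclei as well. It had UMIs in 20.4% of shallow members, against 0.340% of keratinocyte nuclei and no macrophage nucleus, and averaged 232 CPM in shallow members, 9.81 CPM in deep members and 1.23 CPM in other nuclei. Of its UMIs in the passing nuclei, 22.9% lay in the 453 members. EMB, which encodes the membrane glycoprotein embigin, averaged 681 ± 219 CPM in shallow members, 6.02 CPM in macrophage nuclei, 4.94 CPM in dendritic nuclei and 15.95 CPM in other nuclei, and was higher than in other nuclei in 6 of 6 animals. PTX3, the soluble pattern recognition protein pentraxin 3, averaged 415 ± 543 CPM in shallow members and 2.76 CPM in other nuclei, and was higher in 5 of 6 animals.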
